A study of Mus with 12 samples.

Results

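Ccl3, Ccl4, Ccl5, Ccl6 and Ccl9, the C-C chemokine genes grouped here as macrophage inflammatory proteins, were followed in cells selected for F4/80 from the kidneys of 6 mice. They were picked by name, with earlier results of these data known. They make up 5 of the 754 gene probes of a NanoString panel, which counts fluorescent barcodes hybridised to single RNA molecules. The 3 KO mice (17, 23 and 32) carried the Aif-1 -/- genotype and the 3 WT mice (12, 26 and 36) were Aif-1 +/+, Aif1 being the gene of the macrophage actin-associated protein also called Iba1. In every mouse the left kidney had 30 min of ischemia and is called injured, the right kidney, which was not made ischemic, is called contralateral, and both were taken at day 4. This gave 3 KO injured, 3 KO contralateral, 3 WT injured and 3 WT contralateral libraries. Strain, sex, age, how the Aif1 allele was made and whether it is missing from all cells were not stated in the labels. A contralateral kidney comes from an operated animal, so no library stands for a mouse without injury.

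Chemokines are small secreted proteins that leukocytes sense through G protein-coupled receptors and follow along gradients. Ccl3, Ccl4 and Ccl9 are the alpha, beta and gamma forms of macrophage inflammatory protein, Ccl5 is also known as RANTES, and Ccl6 is a relative of Ccl9 found in rodents. In mice Ccr1 binds Ccl3, Ccl5, Ccl6 and Ccl9, and Ccr3 binds Ccl5. After ischemia, kidney macrophages are both a source and a target of such signals, which draw monocytes, neutrophils and T cells into tissue. All 5 genes are protein coding and lie on mouse chromosome 11, in the RefSeq table of assembly GRCm38.p6.

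The libraries held 255274 to 904220 counts in all, and their RNA content differed more than the assay itself. The geometric mean of 20 housekeeping genes ran from 118 to 901 counts, a 7.65-fold range, against 1.18-fold for the positive controls. Injured over contralateral, it was 4.28-fold in KO mouse 17, 1.89-fold in KO mouse 23 and 0.748-fold in KO mouse 32, and 1.02-fold, 1.30-fold and 0.631-fold in WT mice 12, 26 and 36. Levels are therefore given as normalised counts, raw counts divided by each library's TMM-scaled size relative to the average library. The Aif1 probe read 54 to 93 raw counts in KO libraries and 57 to 95 in WT libraries, so it did not separate the genotypes. In both genotypes these counts were close to the background threshold of 53.1 counts. Since the probe's place in the gene is also not known, it neither checks nor contradicts the labels. Of 15 macrophage markers, 14 were on the panel, and all 14 passed the background threshold in at least 1 library. So did every panel gene of the monocyte, T cell, dendritic cell and kidney epithelium and stroma lists. Of the 734 endogenous genes, 682 passed in at least 3 libraries, so this count does not set macrophages apart. Egf, Havcr1 and other kidney epithelial or stromal genes were also abundant, with a summed normalised level over 6 genes of 48507 in the injured and 70662 in the contralateral library of WT mouse 12, outside the 6343 to 25709.6 of the KO libraries. Housekeeping RNA was also most abundant in both kidneys of WT mouse 12 and in the injured kidney of KO mouse 17.

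Of the 5 genes, Ccl9 and Ccl5 were higher in injured kidneys in both genotypes. Ccl9 RNA was 3.33-fold and Ccl5 RNA 2.53-fold higher over all 6 mice, while Ccl3, Ccl4 and Ccl6 did not pass the test. No difference between KO and WT mice passed the test for any of them.

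Ccl9 gave the largest fitted response of the 5 without background subtraction. Its normalised count was 1036, 669 and 349.8 in the injured kidneys of KO mice 17, 23 and 32, against 162, 159 and 135 in their contralateral kidneys. In WT mice 12, 26 and 36 it was 197, 323 and 580.4 in injured kidneys, against 79.6, 173 and 143 in contralateral kidneys. All 6 injured libraries lay above all 6 contralateral libraries, which 1.47% of the 682 genes tested also did. KO mouse 17 had the highest injured level and WT mouse 12 the lowest on both sides. The mean was 526 ± 305 in injured and 142 ± 33.5 in contralateral kidneys (SD, n = 6 each), so the spread was wide in injured kidneys and narrow in contralateral ones. Before any scaling, contralateral counts stayed between 88 and 155, while injured counts ran from 199 to 2412.

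Ccl5, a ligand of Ccr1 and Ccr3 that T cells, NK cells, platelets and macrophages can all make, was higher in the injured kidney of every mouse as well. Its normalised count was 245, 164 and 137 in the injured kidneys of KO mice 17, 23 and 32, against 90.3, 48.3 and 74.9 in their contralateral kidneys. In WT mice 12, 26 and 36 it was 172, 87.0 and 125 in injured kidneys, against 62.4, 55.7 and 36.0 in contralateral kidneys. Injured and contralateral kidneys did not overlap within either genotype, although over all 12 libraries the injured kidney of WT mouse 26 lay just under the contralateral kidney of KO mouse 17. Among the 682 genes, 12.9% had all 3 KO injured libraries above the 3 KO contralateral ones and 3.67% did so in WT mice. The mean was 155 ± 53.5 in injured and 61.3 ± 19.3 in contralateral kidneys (SD, n = 6 each).

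**Figure D1:**
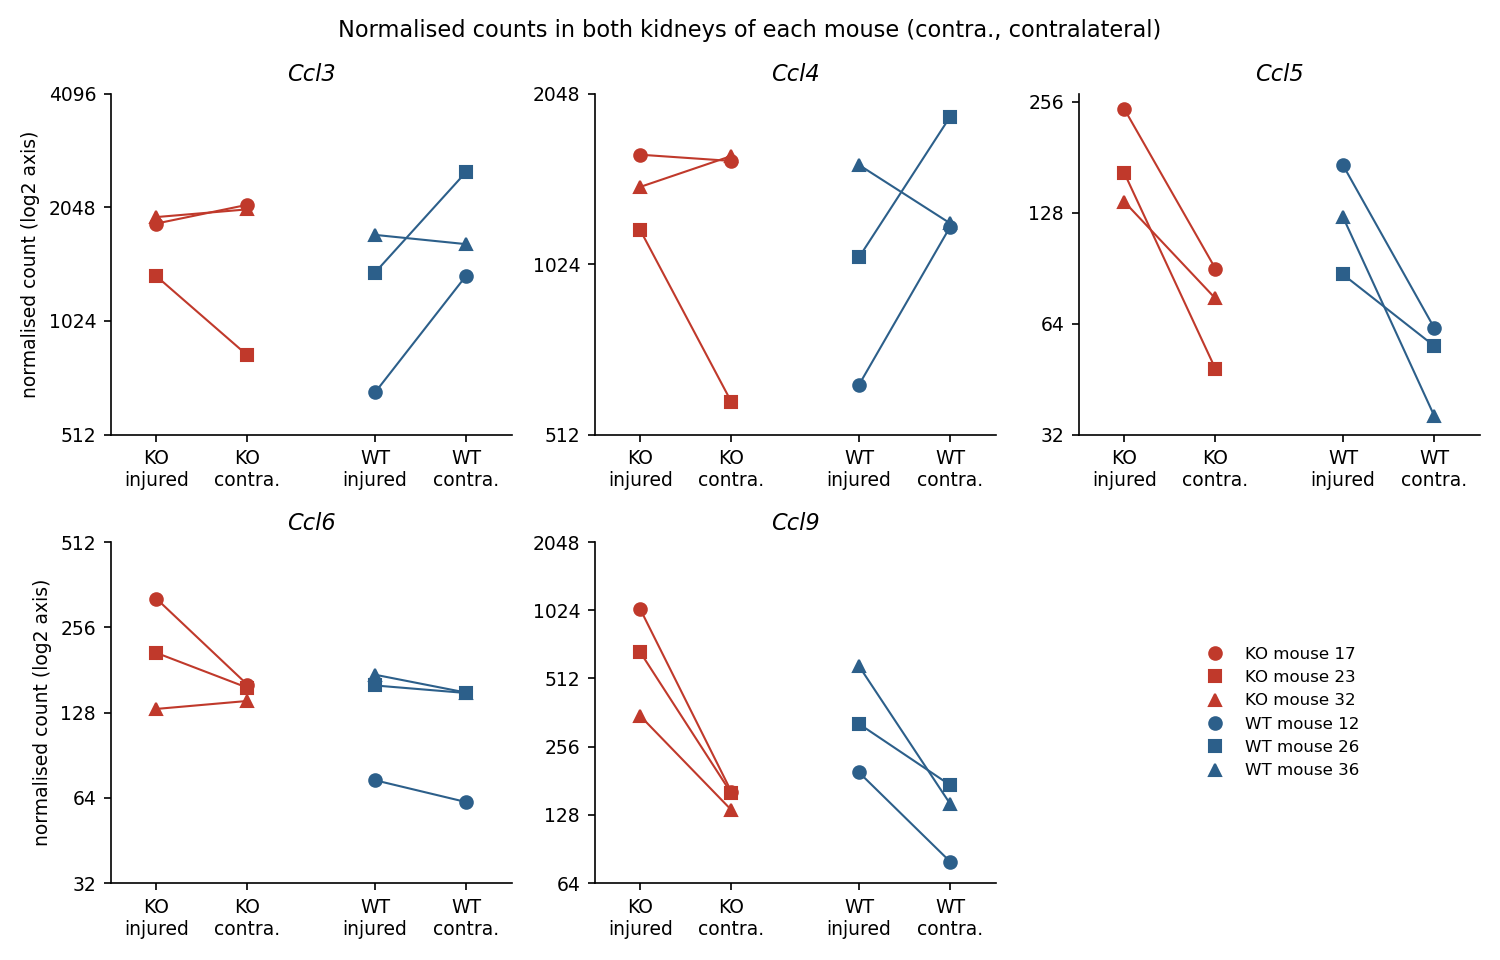
Normalised counts (log2 axis) of each gene in the injured and contralateral kidney of each KO mouse (red) and WT mouse (blue), with a line joining the kidneys of a mouse. Every Ccl9 and Ccl5 line falls from injured to contralateral, while the Ccl3, Ccl4 and Ccl6 lines run in both directions.

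The contralateral Ccl5 counts were close to background. Raw counts of 36 to 116 there were 1.13 to 3.63 times the mean of the 8 negative control probes. The gene passed the threshold of 53.1 counts in all 6 injured libraries and in 2 contralateral ones, those of KO mouse 17 and WT mouse 12, so it would have passed the filter through its injured libraries alone. The other 4 genes passed in all 12 libraries. Contralateral Ccl6 and Ccl9 were also low, at 3.03 to 5.65 and 3.06 to 5.37 times the negative control mean. Ccl6 in the injured kidney of KO mouse 32 was at 2.15 times. After subtraction of the negative control mean, the fitted log2 difference of Ccl5 was 2.42, against 1.34 without subtraction. That of Ccl9 was 1.99 with subtraction, so the order of the pair depends on this step.

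In the fit over all 12 libraries with mouse as a block, Ccl9 was higher in injured kidneys by 1.73 ± 0.21 on the log2 scale (SE, 6 mice, edgeR quasi-likelihood adjusted p = 7.26e-05). Ccl5 was higher by 1.34 ± 0.21 (adjusted p = 0.000571). Without mice 12 and 17, the animals whose libraries reached the highest RNA content, the values were 1.62 for Ccl9 (edgeR adjusted p = 3.18e-08) and 1.30 for Ccl5 (adjusted p = 7.03e-06). These p-values were smaller although the differences and the number of mice were smaller too. The spread in edgeR is shared across genes, so they do not measure the spread among the remaining mice alone and are not stronger evidence. The called genes were 2 of 5, against 7.33% of the 682 genes tested that were called higher and 0.587% called lower at an adjusted p under 0.05. The median over the 5 was 0.32 and over all genes -0.068. The sign was positive in 6 of 6 mice for Ccl9 and in 6 of 6 for Ccl5, as for 8.8% of all genes. In bulk samples, more cells that carry a transcript and more of it in each cell cannot be told apart.

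Macrophage markers moved in the same direction. In 6 of 6 mice the injured kidney had the higher summed level over these 14 genes, at 7763 to 13490 in KO injured and 3602 to 5139.6 in KO contralateral libraries, and at 4345 to 9722 in WT injured and 3173 to 6143 in WT contralateral ones. Of the 14, 9 were called higher in injured kidneys over both genotypes, against 7.33% of all genes. In KO mice 8 of the 14 were called higher, against 6.6% of all genes, and in WT mice 0, against 0.733%. The median of the 14 was 1.05 in KO and 0.61 in WT mice, and 0 were called in the difference of the responses. Among the 9 was Adgre1, the gene of F4/80, at 0.67 ± 0.19 on the log2 scale. Csf1r, the colony-stimulating factor receptor gene, was not called, at 0.47 ± 0.20 (edgeR adjusted p = 0.24). Its response was 0.067 in WT and 0.88 in KO mice. With libraries scaled instead to Adgre1 and Csf1r, Ccl9 was still higher by 1.16 (edgeR adjusted p = 0.000672) and Ccl5 by 0.76 (adjusted p = 0.0368), where 3.08% of genes were called higher. The summed level of the 6 kidney epithelial and stromal genes went the other way in 5 of 6 mice, all but KO mouse 17. It ran from 6343 to 25709.6 in KO injured and 13106 to 17244 in KO contralateral libraries, and from 4688 to 48507 in WT injured and 12999.9 to 70662 in WT contralateral ones. Of these 6 genes, Havcr1, a marker of injured tubules, was called higher and Egf, made by distal tubules, lower. The part of kidney cells in the Ccl9 and Ccl5 results was not tested.

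Markers of other cells that can make Ccl5 were thinly covered. The T cell list had 2 of 12 genes on the panel, neither called, and 3 of 6 mice had the higher sum on the injured side, ranging from 80.7 to 227 in KO injured, 200.3 to 301 in KO contralateral, 87.1 to 274 in WT injured and 94.7 to 244 in WT contralateral libraries. The NK cell list had 3 of 9 genes, of which 1 was tested and not called, and Klrk1 was under the threshold in all libraries. Pf4, the platelet factor and the only platelet marker present of 4, was called higher and was above its contralateral level in 6 of 6 mice. The summed macrophage markers were also higher in 6 of 6 mice, and 1 gene cannot tell platelets from other cells. The part of these cells in the Ccl5 result was not tested.

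Within each genotype the same pair of genes passed. In KO mice, Ccl9 was higher in injured kidneys by 2.06 ± 0.30 (SE, edgeR adjusted p = 0.000754, n = 3 mice) and Ccl5 by 1.36 ± 0.29 (adjusted p = 0.00780), where 6.6% of genes rose and 0.147% fell. In WT mice, Ccl9 was higher by 1.41 ± 0.29 (edgeR adjusted p = 0.0279, n = 3 mice) and Ccl5 by 1.32 ± 0.29 (adjusted p = 0.0498), where 0.733% of genes were called. The WT calls sat close to the threshold and were lost with housekeeping gene, positive control, DESeq2 size factor or macrophage gene scaling, without the mouse block, and without WT mouse 12 (Ccl9 1.46, adjusted p = 0.433), 26 (1.54, adjusted p = 0.189) or 36 (1.11, adjusted p = 0.843) or KO mouse 23 (1.34, adjusted p = 0.0645). In KO mice both calls were lost without the block, where the values were 2.17 for Ccl9 (adjusted p = 0.0560) and 1.36 for Ccl5 (adjusted p = 0.127). The KO call of Ccl5 was also lost with housekeeping scaling (1.21, adjusted p = 0.0916), with macrophage gene scaling, where it was 0.50 (adjusted p = 0.261), and without KO mouse 23 (Ccl5 1.14, adjusted p = 0.193).

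**Figure D2:**
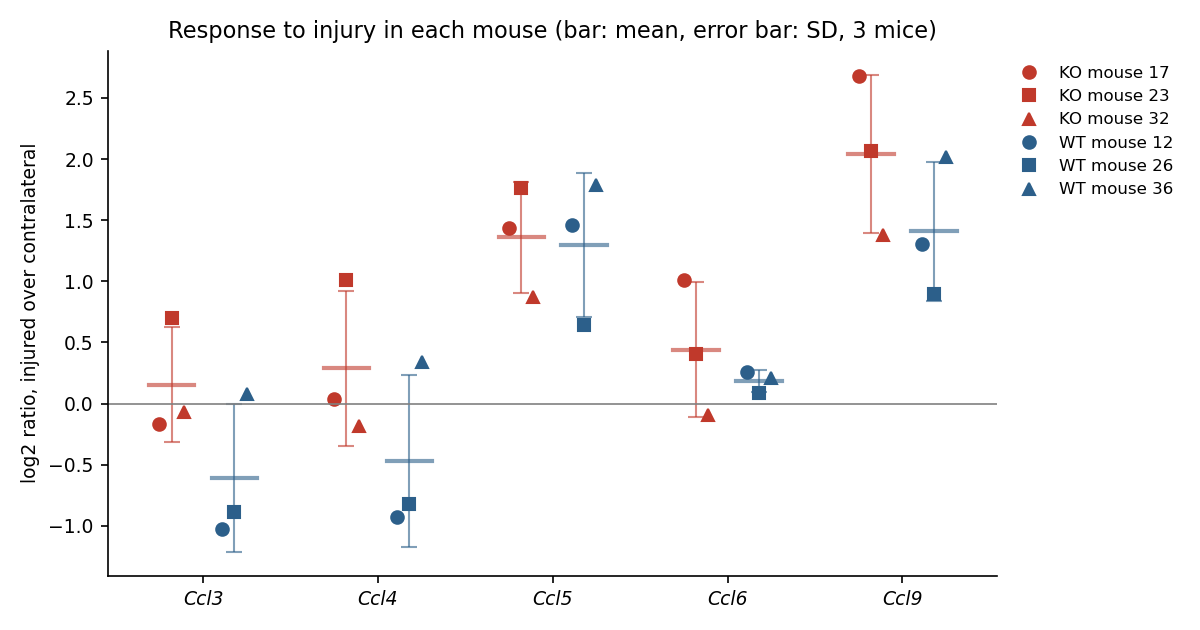
Log2 ratio of normalised counts, injured over contralateral, in each of 3 KO mice (red) and 3 WT mice (blue), with the mean (bar) and SD (error bar) of each genotype. All 12 Ccl5 and Ccl9 points lie above 0, and the KO and WT points overlap for every gene.

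Ccl3 and Ccl4, which activated macrophages secrete early, did not pass the test and went up in some mice and down in others. The normalised count of Ccl3 was 1854, 1346 and 1929 in the injured kidneys of KO mice 17, 23 and 32, against 2079, 830.3 and 2022 in their contralateral kidneys. In WT mice 12, 26 and 36 it was 662, 1376 and 1730.2 in injured kidneys, against 1349.9, 2540.3 and 1635 in contralateral kidneys. The ranges overlapped in both genotypes, and the injured level exceeded the contralateral one in 2 of 6 mice, KO mouse 23 and WT mouse 36.

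Ccl4 had normalised counts of 1597, 1176 and 1401 in the injured kidneys of KO mice 17, 23 and 32, against 1557, 585 and 1589 in contralateral kidneys. In WT mice 12, 26 and 36 the counts were 627, 1053 and 1532 in injured kidneys, against 1192, 1864 and 1208 in contralateral kidneys. The injured level exceeded the contralateral one in 3 of 6 mice. The fitted log2 difference over all mice was -0.23 ± 0.27 for Ccl3 (SE, edgeR adjusted p = 0.724) and -0.096 ± 0.27 for Ccl4 (adjusted p = 0.877). With Adgre1 and Csf1r scaling, both were called lower (-0.79 and -0.66), as were 45.7% of all genes, whose median moved to -0.64.

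The pair stayed in step through all of this. Across the 12 libraries, log2 normalised counts of Ccl3 and Ccl4 correlated at a Pearson r of 0.97 and a Spearman rho of 0.91, and the log2 ratio of their raw counts had an SD of 0.14. The 6 mouse-level responses correlated at 0.98. Libraries share their scaling, which adds to any such correlation, but the raw ratio within a library does not depend on scaling. Ccl3 with Ccl9 correlated at 0.12 and Ccl3 with Ccl5 at -0.086, and Ccl5 with Ccl9 at 0.77.

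**Figure D3:**
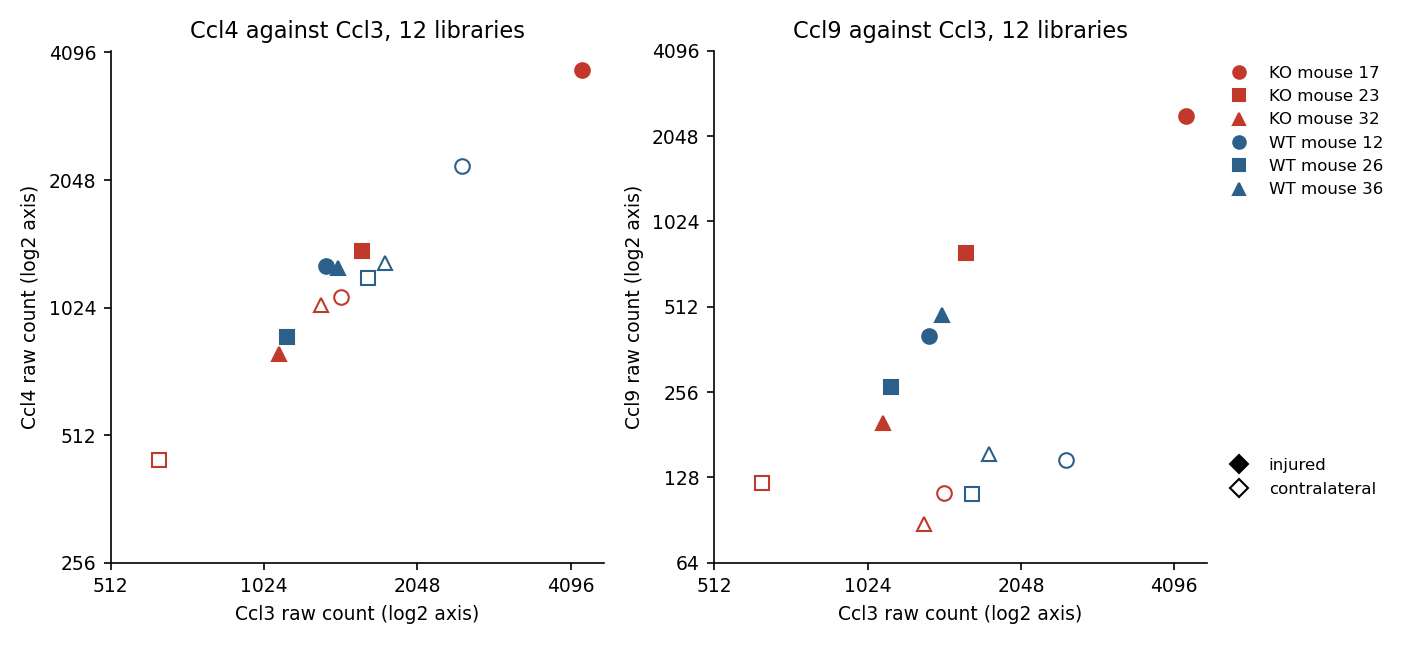
Raw counts (log2 axes) of Ccl4 against Ccl3 and of Ccl9 against Ccl3 in the 12 libraries, with KO mice in red, WT mice in blue, injured kidneys filled and contralateral kidneys open. Ccl4 follows Ccl3 along 1 line through all libraries, whereas at a given Ccl3 count the injured kidneys have more Ccl9.

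Setting the genes against each other within each mouse removes the scaling altogether. The log2 response of Ccl9 exceeded that of Ccl3 in 6 of 6 mice, by 1.37 to 2.84, with a mean of 1.95 ± 0.56 (SD). Ccl5 also exceeded Ccl3 in 6 of 6 mice, by 0.94 to 2.49. Ccl9 exceeded its relative Ccl6 in 6 of 6 mice by 0.81 to 1.81, and Ccl5 exceeded Ccl6 by 0.43 to 1.58. Ccl4 minus Ccl3 stayed between -0.11 and 0.31.

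Ccl6, like Ccl9 a ligand of Ccr1, changed much less. Its normalised count was 323, 208 and 132 in the injured kidneys of KO mice 17, 23 and 32, against 161, 157 and 141 in contralateral kidneys. In WT mice 12, 26 and 36 it was 73.9, 159.6 and 174 in injured kidneys, against 61.8, 150.1 and 151 in contralateral kidneys. KO mice 17 and 23 and WT mouse 36 had injured levels above every contralateral one, and KO mouse 32 was the only mouse with a lower injured level. This depends on the scaling. With housekeeping scaling the injured level was higher in 6 of 6 mice, and raw counts were lower in both KO mouse 32 and WT mouse 36. The fitted log2 difference was 0.32 ± 0.17 (SE, edgeR adjusted p = 0.385), with normalised counts higher in 5 of 6 mice. Without KO mouse 32 it was called, at 0.44 (adjusted p = 0.0152), in a fit that called 15.2% of genes higher and 17.4% lower. The KO response of Ccl6 in that fit, from KO mice 17 and 23, was 0.76 (edgeR adjusted p = 0.00268). For that response 167 of 682 genes (24.5%) were called higher and 203 lower. As described below for the genotype comparison, calls of that fit do not measure the spread among the remaining mice alone. With KO mouse 32 kept, the KO response of Ccl6 was 0.46 ± 0.24 (SE, edgeR adjusted p = 0.221) and was not called.

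Between genotypes, none of the 5 genes was called in the difference of the responses, in injured kidneys or in contralateral kidneys, and 0% of the 682 genes were called by edgeR in each of these comparisons. At an unadjusted p under 0.05 there were 75, 5 and 3 genes and 0 of the 5, and DESeq2 called 0, 3 and 0 genes and limma-voom 0 in each. KO minus WT, the response of Ccl9 differed by 0.64 ± 0.41 on the log2 scale (SE, edgeR adjusted p = 0.424), that of Ccl3 by 0.77 ± 0.54 (adjusted p = 0.439) and that of Ccl4 by 0.76 ± 0.54 (adjusted p = 0.442). For Ccl5 it was 0.044 ± 0.41 and for Ccl6 0.28 ± 0.34. In injured kidneys all 5 fitted differences were positive, from 0.38 ± 0.47 for Ccl4 to 0.91 ± 0.46 for Ccl9, and in contralateral kidneys they ran from -0.19 ± 0.47 for Ccl4 to 0.47 ± 0.38 for Ccl5. For each of the 5 genes the KO and WT libraries overlapped on both sides. Overlap was also the common case over all genes. Only 3.67% in injured and 11.9% in contralateral kidneys had all 3 KO libraries apart from all 3 WT libraries. These comparisons share libraries with the responses and are not separate evidence.

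Each mouse's own ratio gave the same picture. The log2 response of Ccl9 was 2.68, 2.07 and 1.38 in KO mice 17, 23 and 32, against 1.31, 0.90 and 2.02 in WT mice 12, 26 and 36. That of Ccl3 was -0.17, 0.70 and -0.068 in the KO mice, against -1.03, -0.88 and 0.082 in the WT mice. The genotypes overlapped for both genes. Exact two-sided permutation tests over 3 KO and 3 WT mice gave p = 0.2 for Ccl9, 0.3 for Ccl3 and Ccl4, 0.6 for Ccl6 and 1.0 for Ccl5, where 0.1 is the smallest p that 3 against 3 allow. Over the 10 such tests on ratios and mean levels, adjusted p-values lay between 0.6 and 1.0.

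Leaving out KO mouse 32 changed the calls of the genotype comparison. Without it, the response of Ccl9 was called larger in KO mice by 1.08 ± 0.32 (SE, edgeR adjusted p = 0.00567). That of Ccl4 was called larger by 1.11 ± 0.45 (adjusted p = 0.0331). In that fit 23.5% of all genes were called larger and 23.9% smaller in KO mice. Without WT mouse 36 the differences were 0.95 for Ccl9 and 1.16 for Ccl4, not called (edgeR adjusted p = 0.734 each). The spread in edgeR is shared across genes. For a like ratio of difference to SE, the fit without KO mouse 32 gave smaller p-values than that of all mice. Its calls therefore do not measure the spread among the remaining mice alone. The housekeeping ratio of KO mouse 32, 0.748, was below 1, and those of KO mice 17 and 23 were 4.28 and 1.89. The part of RNA content in this difference was not tested.

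**Figure D4:**
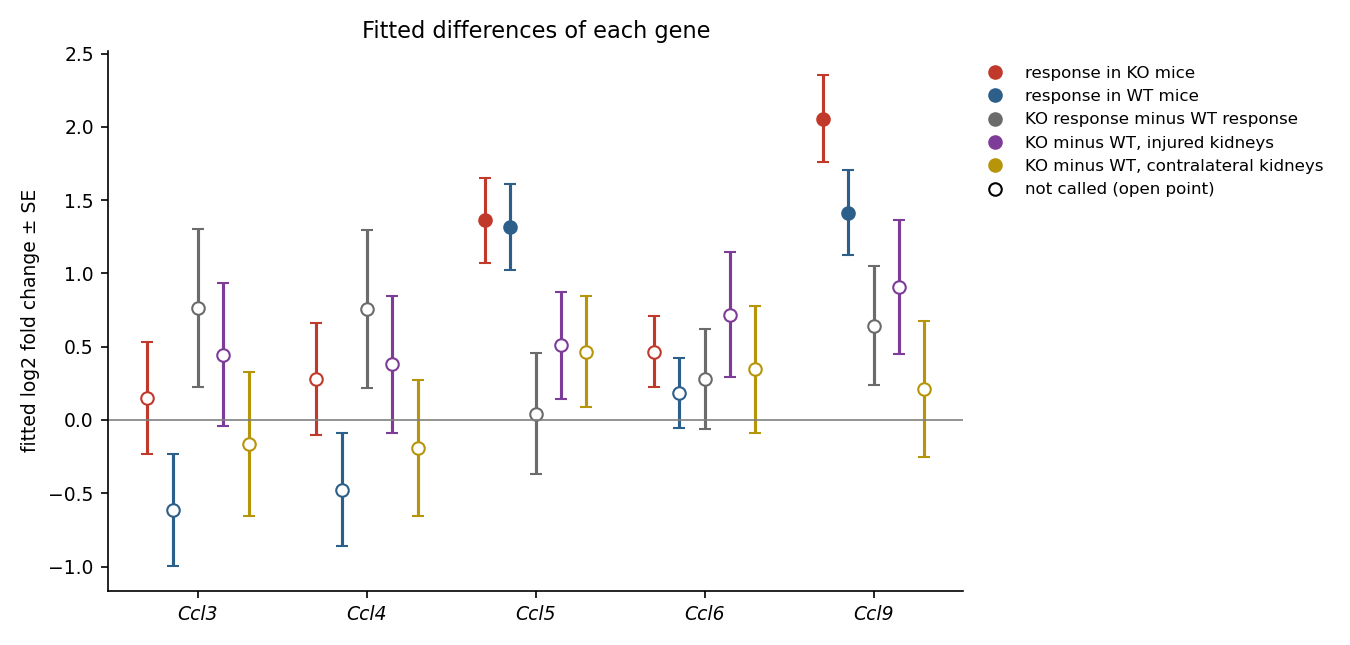
Fitted log2 fold change with its SE for each gene in 5 comparisons: the response in KO mice, the response in WT mice, their difference, and KO minus WT in injured and in contralateral kidneys. Filled points mark an adjusted p under 0.05, which Ccl5 and Ccl9 reach in both responses and no gene reaches in a genotype comparison.

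By level, from highest to lowest mean, the groups ranked alike for Ccl9 and Ccl5 and alike for Ccl3 and Ccl4, while Ccl6 had its own order. Ccl9 and Ccl5 ranked KO injured, WT injured, KO contralateral, WT contralateral, with means of 685, 367, 152 and 132 for Ccl9 and of 182, 127.9, 71.2 and 51.4 for Ccl5 (n = 3 each). Ccl3 and Ccl4 had WT contralateral kidneys at the top and WT injured kidneys at the bottom. Ccl3 averaged 1256 ± 544 in WT injured and 1842 ± 621 in WT contralateral kidneys (SD, n = 3). Neighbouring groups in each order overlapped, except for Ccl9 in WT injured over KO contralateral kidneys. That exception is no separate result. It follows from all 6 injured Ccl9 libraries lying above all 6 contralateral ones, as for 1.47% of the 682 genes.

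Ccr1 and Ccr3, receptors of these ligands, were measured on the same panel, and neither was called. Ccr1, which Ccl6 and Ccl9 share, differed by 0.10 ± 0.17 on the log2 scale between injured and contralateral kidneys (SE, edgeR adjusted p = 0.78) and Ccr3 by -0.45 ± 0.22 (adjusted p = 0.36). The decoy receptors of inflammatory C-C chemokines were not analysed here.

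Among the 16 other C-C chemokine genes, 14 could be tested and 2 were called higher in injured kidneys, none lower, with a median of -0.21, where 7.33% of all genes tested were called higher and the median was -0.068. These were Ccl2, the main attractant of monocytes, at 1.77 ± 0.22 (SE, edgeR adjusted p = 8.60e-05), and Ccl7, which acts on the same receptor, at 1.57 ± 0.17 (adjusted p = 7.26e-05). Of 15 other chemokine receptor genes, 2 were called higher and none lower, with a median of -0.18, against the same shares of 7.33% higher and 0.587% lower over all genes. They were Ccr2, the receptor of Ccl2 and Ccl7, at 0.79 ± 0.16 (adjusted p = 0.0031), and Cx3cr1, the fractalkine receptor, at 0.80 ± 0.17 (adjusted p = 0.0045).

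The genes that tracked each chemokine most closely differed between the pairs. Over 644 genes and 12 libraries, Ccl9 was most like Itgam, an integrin chain of myeloid cells, with a Pearson r of 0.99, then Stab1, a scavenger receptor gene, at 0.98, and Ccl7 at 0.97. Ccl5 was most like Psmb8, an immunoproteasome subunit, at 0.90, then Tmem173, the gene of STING, and Icam1, an adhesion molecule, at 0.87 each. Ccl6 was most like Irf8, Adam8 and Arg1, at 0.91 to 0.92. After Ccl4, Ccl3 was most like Ifnb1, the interferon beta gene, at 0.88 and Cd74, the invariant chain, at 0.87, and Ccl4 was next most like Rgs1 and Cd83, at 0.86 and 0.85. These libraries share scaling, mice and RNA content.

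**Figure D5:**
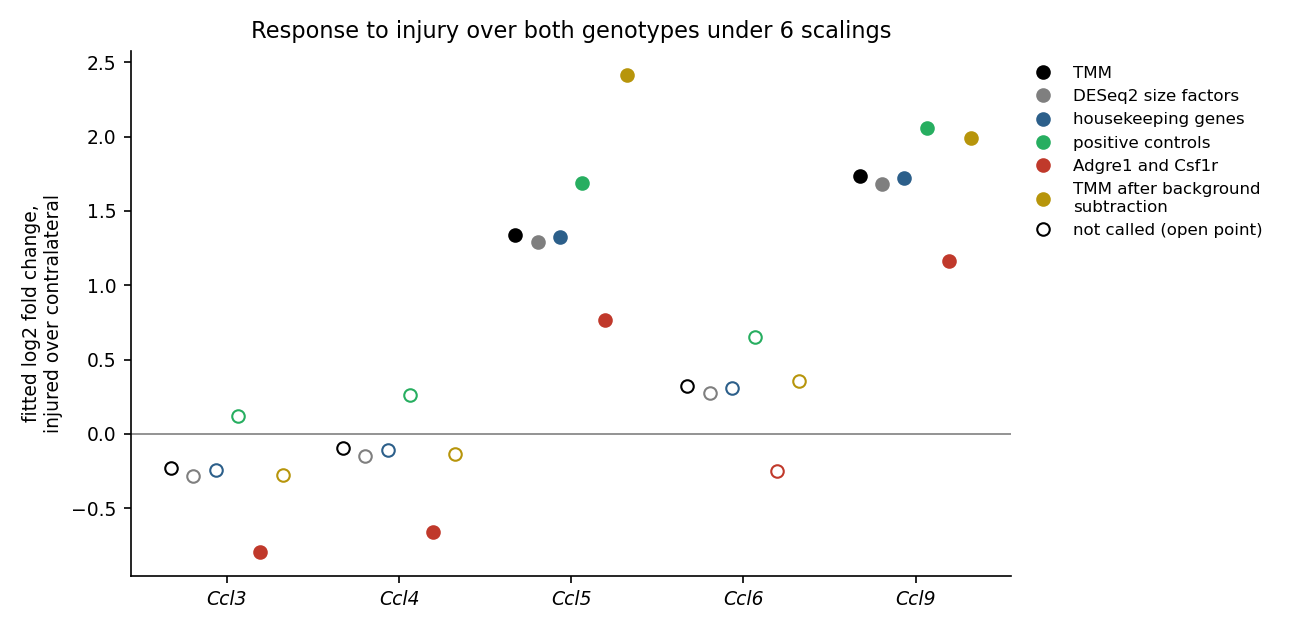
Fitted log2 fold change, injured over contralateral, of each gene over both genotypes under 6 scalings, with filled points for an adjusted p under 0.05. Ccl5 and Ccl9 are above 0 and filled under each of the 6, while the points of Ccl3 and Ccl4 lie on both sides of 0, filled under Adgre1 and Csf1r scaling, and those of Ccl6 are open.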

How the data were processed

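The deposited values are raw counts, whole numbers with no normalization visible in the library totals, over 768 probes (734 endogenous, 20 housekeeping, 6 positive and 8 negative controls) in 12 libraries, and the labels name the maker's NanoString protocol. F4/80 cells were selected immunomagnetically, per the labels' protocols. Neither panel, lane nor counting program was given in the sources used here. The 5 genes and the lists were chosen with earlier results of these data known, and the named genes are these 5, Aif1, receptors of the 5 (1 result is not reported here), called genes of the listed families and the 3 genes most like each one.

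Genes with a raw count of at least 53.1, set 2 SD above the mean negative control, in at least 3 libraries were tested (682). Counts were scaled by TMM and fitted with edgeR 4.0.16 (R 4.3.3), with mouse as a block for injured minus contralateral and without it for KO minus WT in each kidney, with Benjamini-Hochberg adjustment across all 682. Called means an adjusted p under 0.05. A standard error is the size of the log2 fold change divided by the root of its F value. Mouse-level values were compared by exact permutation (scipy 1.17.1), and the fits were tested on simulated data. The pairing comes from the shared animal: deviations from group means correlated at -0.13, 0.37 and -0.49 in KO mice 17, 23 and 32, and at 0.96, 0.88 and 0.72 in WT mice 12, 26 and 36. Replicates are separate mice, and none of the 12 pairs of libraries within a group agreed within sampling noise (lowest chi-square per degree of freedom 5.96). Alternatives were DESeq2 1.42.0 size factors and test, limma-voom (limma 3.58.1), housekeeping, positive control and macrophage gene scaling, background subtraction to a floor of 1, no filter, a strict filter in all libraries, no block, each genotype or kidney side alone, and leaving out each mouse. Leaving out mice 12 and 17 together was chosen after seeing the data. Probe sequences were not used here.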

Additional observations from a re-analysis of the deposited data

Results flagged for a closer look

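In 15 sets of 6 values (each gene's injured libraries, contralateral libraries and mouse ratios), 3 held a value far from the others by Dixon's test, which flags about 1 in 20 sets by chance. All 3 came from WT mouse 12. Ccl3 had 662 normalised counts in its injured kidney, against 1346 in the next lowest injured library. Ccl6 had 61.8 in its contralateral kidney, against 141 in the next lowest contralateral library, and Ccl9 had 79.6 there, against 135. The same libraries had the highest housekeeping counts, at 901 injured and 879 contralateral. Raw counts of Ccl6 and Ccl9 in that contralateral kidney were 115 and 148, inside the range of the other 5.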

How the results depend on the processing

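Over both genotypes, Ccl9 was called in 17 of 17 alternative settings and Ccl5 in 16 of 16, with adjusted p up to 0.016 and 0.037. Macrophage gene scaling called 4 of the 5 genes there, Ccl5 and Ccl9 higher and Ccl3 and Ccl4 lower, where 333 of 682 genes were called. The strict filter, which does not test Ccl5, called 1 of the 5, where 38 of 518 genes were called. Without KO mouse 32, Ccl6 was called as well (edgeR adjusted p = 0.0152), where 223 of 682 genes were called. Calls of that fit do not measure the spread among the remaining mice alone. In KO mice the number of the 5 genes called was 1 with housekeeping scaling (32 of 682 genes called), macrophage gene scaling (410 of 682) or the strict filter (35 of 518). It was 0 without the replicate block (3 of 682), and 1 to 3 leaving out each mouse (14 to 370 of 682). In WT mice it was 0 with DESeq2 size factors or positive control scaling (2 of 682 genes called in each). It was also 0 with housekeeping or macrophage gene scaling or no replicate block (0 of 682 in each), and with the strict filter (0 of 518). Leaving out each mouse gave 0 to 2 of the 5 (0 to 48 of 682). In the difference of responses the number of the 5 called was 0 to 2 leaving out each mouse (0 to 323 of 682 genes called). The block changed the call in each genotype but not over both, where Ccl5 was 1.34 (adjusted p = 0.027) and Ccl9 1.83 (adjusted p = 0.016) without it and 14 genes were called, against 54 with it.

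Of 514 settings of single genes, 453 kept direction and side of the threshold and 31 changed sign, none of them a called value. Macrophage gene scaling turned Ccl3 (-0.70), Ccl4 (-0.57) and Ccl6 (-0.41) in KO mice, Ccl6 in WT mice (-0.095) and over both (-0.25), Ccl4 (-0.064) and Ccl5 (-0.35) in KO minus WT injured kidneys, and the response differences of Ccl5 (-0.53) and Ccl6 (-0.32). Positive control scaling turned Ccl3 (0.12) and Ccl4 (0.26) over both genotypes, and Ccl5 (-0.36), Ccl6 (-0.19) and Ccl9 (-0.34) in KO minus WT contralateral kidneys. Without mice 12 and 17, Ccl4 turned over both (0.10) and in KO minus WT injured kidneys (-0.024), and Ccl6 (-0.075) and Ccl9 (-0.16) in KO minus WT contralateral kidneys. Housekeeping scaling turned the response difference of Ccl5 (-0.22 fitted, -0.20 by mouse ratio) and of Ccl6 (-0.00058 and -0.0041), and background subtraction that of Ccl5 (-0.12 and -0.11). Leaving out each mouse gave -0.15 to 0.31 for Ccl3 and -0.10 to 0.56 for Ccl4 in KO mice, -0.33 to 0.021 for Ccl4 over both, -0.12 to 0.37 for the Ccl5 response difference, and in KO minus WT contralateral kidneys -0.47 to 0.063 for Ccl3, -0.55 to 0.043 for Ccl4, -0.026 to 0.54 for Ccl6 and -0.10 to 0.30 for Ccl9. The cause of these changes was not tested. Low counts limit Ccl5 in contralateral kidneys and, to a lesser degree, Ccl6 and Ccl9 there.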
